A study of Drosophila melanogaster with 9 samples.

Results

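The odorant-binding protein genes of *Drosophila melanogaster* were followed across 9 expression arrays. A gene was a member when a probe set (the group of short probes on the array that reads 1 transcript) carried 1 gene symbol beginning with Obp and a number, and a gene with several such probe sets was represented by the brightest, judged by its average across all 9 arrays. This gave 47 genes, read by 50 probe sets, of the 11982 genes with a row of their own. RefSeq lists 51 genes under such a symbol. *Obp50b*, *Obp50c* and *Obp57d* are read only by 4 probe sets that also carry a second gene symbol, and *Obp83a* has no named probe set, so these 4 genes are not members. The arrays fall into 3 groups of 3. Mock RNAi is mock-treated BG3 cells, a male line established from the central nervous system of larvae. Ph RNAi is the same line given 10 µg of double-stranded RNA per well against sequence shared by *ph-p* and *ph-d*, which encode Polyhomeotic, one of the core proteins of the repressive complex PRC1, for 5 days. Wing disc is the wing imaginal disc of late last-instar *yw* larvae of both sexes, 12 to 15 discs per replicate. No group received a double-stranded RNA without a target, so an effect of double-stranded RNA itself cannot be told apart from one of Ph depletion. The replicates are called biological, with nothing more on separate cultures or animals, so p-values rest on the spread among these arrays, which may be technical in part.

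Odorant-binding proteins are small secreted proteins that fold into a bundle of helices held by disulfide bridges and enclose a pocket for hydrophobic ligands. In the antenna and in taste organs, support cells of the sensilla release them into the fluid around the receptor neurons, where they carry or buffer odorants and pheromones. The family reaches beyond smell, with members made in male reproductive glands and passed on in seminal fluid, and others in the fat body or in glia. By their cysteines they are sorted into a classic group, a Plus-C group with additional cysteines and a Minus-C group that lacks a conserved pair. *Obp44a*, a Minus-C member, is secreted by glia of the developing brain and binds fatty acids.

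The values are log2 expression values. In each kind of sample they form a lower mode of genes near background and an upper mode, and the boundary between the modes, taken at the lowest density between them, lay at 3.92 for the BG3 arrays and 2.94 for the wing disc arrays. Below it a gene has little room to fall, and a fold that starts there depends on the background correction. The wing disc arrays had medians of 0.827 to 0.842 over all probe sets against 2.21 to 2.23 for the BG3 arrays and were taken as normalized apart. Levels are therefore set across the 2 materials only as percentile ranks, the percentage of all genes of the same array with a lower value, and a rank also depends on how well the probes of a gene bind. Replicates correlated at r = 0.99 or above across probe sets in every group (lowest value 0.9904, in Ph RNAi). Of 8 wing disc markers 6 were measured, and 5 lay in the upper mode on the disc arrays. In BG3 cells the neuronal protein gene *elav* lay in the upper mode (6.05 to 7.07 in Mock RNAi), while the synaptic genes *nSyb* and *brp* and the glial gene *repo* were near background without Ph RNAi. Other glial genes were not. Of 11 glia markers measured, 5 had Mock RNAi means in the upper mode: *drpr* (12.05), *nrv2* (11.10), *moody* (10.22), *loco* (10.14) and *Gli* (7.37). Of 11 neuron markers 8 were measured and 0 were called by limma after Ph RNAi, with 2 at an unadjusted p under 0.05.

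Most odorant-binding protein genes stood near the bottom of the scale in the cell line and in the disc. In Mock RNAi the mean of 1 of the 47 lay in the upper mode, in Ph RNAi 3 and in wing disc 4, where the shares over all genes were 46.4%, 46.9% and 47.9%. Across the 47 genes the median percentile rank was 22.8 in Mock RNAi, 26.6 in Ph RNAi and 25.4 in wing disc. The 41 members in the lower mode in all 3 groups had single-array values from 1.36 to 2.83 in Mock RNAi and from 1.29 to 2.55 in Ph RNAi. The upper mode held *Obp44a* in Mock RNAi, *Obp44a*, *Obp99a* and *Obp18a* in Ph RNAi, and *Obp56a*, *Obp99a*, *Obp99b* and *Obp83g* in wing disc. *Obp99a* was thus the 1 member in the upper mode in both Ph RNAi cells and discs.

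**Figure D1:**
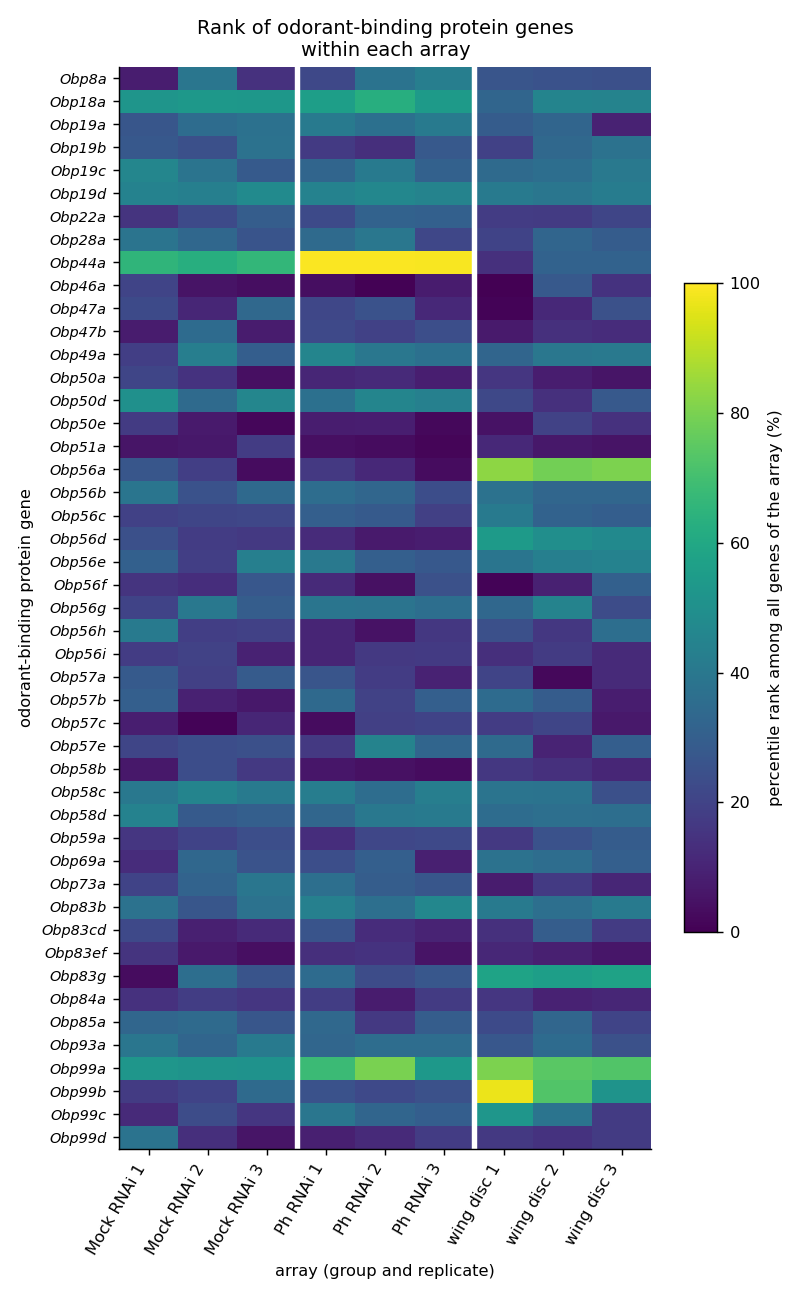
Percentile rank of each of the 47 odorant-binding protein genes among all genes of the same array, with a row per gene and a column per array (3 replicates of Mock RNAi, Ph RNAi and wing disc, parted by white lines). *Obp44a* stands between 98.9 and 99.6 on the Ph RNAi arrays, and *Obp56a*, *Obp83g*, *Obp99a* and *Obp99b* stand out on the wing disc arrays.

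In Ph RNAi cells 1 odorant-binding protein gene was higher than in Mock RNAi cells past the test, *Obp44a*, and by a large factor. Its log2 values were 7.01, 6.40 and 7.05 on the Mock RNAi arrays and 13.95, 14.07 and 12.97 on the Ph RNAi arrays. The groups do not overlap, and the gap between them is far wider than the spread within either. The means were 6.82 ± 0.37 and 13.66 ± 0.60 (SD, n = 3 each), a log2 change of 6.85 ± 0.30 (SE), or 115-fold, with an adjusted p of 6.29e-07 in limma. Because the gene was already above the boundary of the modes in Mock RNAi, this change was measured on both sides. In rank, *Obp44a* moved from a percentile of 64.7 ± 1.85 to 99.4 ± 0.38 (SD, n = 3 each), which placed its signal at positions 53, 50 and 131 from the top of 11982 genes on Ph RNAi replicates 1, 2 and 3. The call held in all 15 other settings tried, with log2 changes of 6.64 to 7.19 and adjusted p from 5.51e-11 to 6.92e-05.

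The nearest measured genes on both sides of *Obp44a* in the RefSeq order of arm 2R were *Pabp2*, which encodes the nuclear poly(A)-binding protein, and *Lpin*, the Lipin gene of fat synthesis. *Pabp2* stood at 12.07 ± 0.05 and 11.88 ± 0.09 (SD, n = 3 each), a log2 change of -0.19 ± 0.13 (SE, adjusted p = 0.532 in limma). *Lpin* stood at 3.58 ± 0.18 and 3.87 ± 0.27, a change of 0.29 ± 0.24 (SE, adjusted p = 0.614). Neither neighbour was called, although all *Pabp2* values were lower in Ph RNAi than in Mock RNAi.

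Some markers of cells that make odorant-binding proteins moved on the same arrays as *Obp44a*. Of 12 glia markers 11 were measured, and 4 were called higher and 1 lower in Ph RNAi. The log2 of their summed signal ran from 13.12 to 13.22 in Mock RNAi and from 13.77 to 14.02 in Ph RNAi. *repo*, the homeodomain factor of nearly all lateral glia, went from 3.08, 2.60 and 3.69 to 10.25, 10.24 and 10.19 (adjusted p = 6.29e-07 in limma). The others called higher, *nrv2*, *loco* and *Gli*, were already in the upper mode in Mock RNAi (means 11.10, 10.14 and 7.37 against 12.69, 11.48 and 9.15). The call of *Gli* lay just under the threshold (adjusted p = 0.0491 in limma), and its Mock RNAi values were spread (6.34, 8.41 and 7.37). The gene called lower was *drpr* (12.05 against 11.22, adjusted p = 0.0424 in limma), and *moody* was high in both groups without a call (10.22 against 10.13). The astrocyte gene *alrm* stood at 2.06, 1.69 and 2.04 against 3.64, 7.02 and 3.46 without a call (adjusted p = 0.063), and *gcm*, *gcm2* and the transporter gene *Gat* stayed in the lower mode in both groups. Of 5 markers of sensory organ support cells 3 were measured and 1 was called higher, *pros*, which also acts in neural precursors and glia (1.61, 1.48 and 1.18 against 7.02, 8.33 and 8.51), while *nompA* and *sv* stayed in the lower mode. The log2 of their summed signal was 3.26 to 3.42 in Mock RNAi and 7.10 to 8.54 in Ph RNAi. There *pros* alone stood at 7.02 to 8.51, so the rise of this sum is that of *pros*. Such calls were not confined to these lists. Of 6 wing disc markers measured, 2 were called higher and 0 lower in Ph RNAi, where 3.2% of all genes were called higher. These were *nub* (mean 1.86 against 4.95, adjusted p = 0.000327 in limma) and *zfh2* (2.13 against 4.38, adjusted p = 0.00065), both near background in Mock RNAi. The part of any of these marker lists in the rise of *Obp44a* was not tested. In these bulk samples a change in the number of cells of a type and a change in RNA per cell cannot be told apart.

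**Figure D2:**
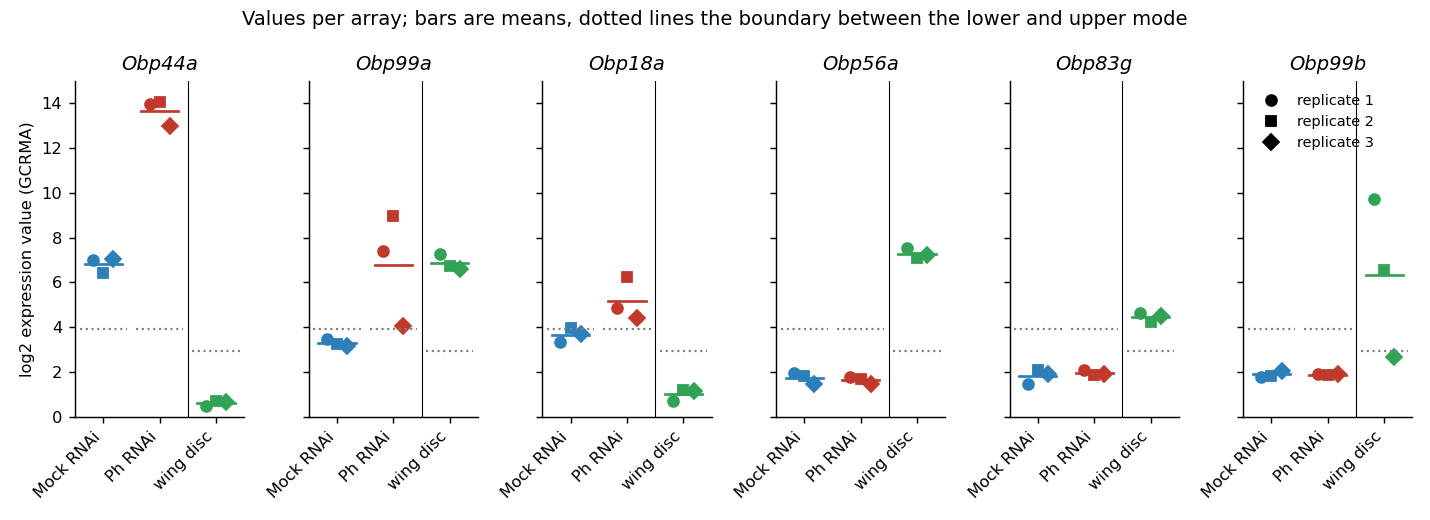
Log2 expression values of 6 odorant-binding protein genes on each array, with a point per replicate, a bar at the mean of 3 and a dotted line at the boundary of the modes (3.92 for BG3 arrays, 2.94 for wing disc arrays). The wing disc values, right of the vertical line, were normalized apart from the BG3 values. *Obp44a* separates fully between Mock RNAi and Ph RNAi, and the Ph RNAi replicates of *Obp99a* and the wing disc replicates of *Obp99b* lie far apart.

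*Obp99a*, another Minus-C member, was higher on all Ph RNAi arrays but by unequal amounts, and was not called. Its values were 3.45, 3.25 and 3.16 in Mock RNAi and 7.40, 8.94 and 4.03 in Ph RNAi. Replicates 1 and 2 lay deep in the upper mode and replicate 3 lay at its boundary, although still above every Mock RNAi array. The means were 3.29 ± 0.15 and 6.79 ± 2.51 (SD, n = 3 each), a log2 change of 3.50 ± 0.93 (SE) with an adjusted p of 0.0619 in limma. The spread of 4.92 log2 units between its Ph RNAi replicates was the fifth widest of all 11982 genes (place 5). Without Ph RNAi replicate 3 the change was 4.89 with an adjusted p of 0.000317, and without Ph RNAi replicate 2 it was 2.43 (adjusted p = 0.139).

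*Obp18a* was also higher on every Ph RNAi array without passing the test. Its values were 3.33, 3.96 and 3.67 in Mock RNAi and 4.86, 6.26 and 4.40 in Ph RNAi. The groups do not overlap, but the lowest Ph RNAi value was near the highest Mock RNAi value. The log2 change was 1.52 ± 0.43 (SE), from 3.65 ± 0.31 to 5.17 ± 0.97 (SD, n = 3 each), with an adjusted p of 0.0833 in limma. Without Ph RNAi replicate 3 it was 1.90 and was called (adjusted p = 0.0478), and without Ph RNAi replicate 2 it was 0.97 (adjusted p = 0.135).

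For all 3 of these genes Ph RNAi replicate 2 was the highest Ph RNAi array and replicate 3 the lowest. Among the Ph RNAi arrays replicate 3 also stood apart in some blood cell markers. All 10 listed hemocyte markers were measured, and 1, *He*, was called higher (adjusted p = 0.0224) and 0 lower by limma, with 4 at an unadjusted p under 0.05. The log2 of their summed signal was 10.82 to 11.62 in Mock RNAi and 10.56, 10.28 and 11.70 on Ph RNAi replicates 1, 2 and 3. *PPO1*, a prophenoloxidase gene of crystal cells, stood at 2.73, 4.44 and 9.53 on these 3 arrays and *He*, which encodes the surface protein Hemese, at 3.33, 4.76 and 6.997. *Hml* stayed in the lower mode in both groups. *srp*, *ush* and *Pxn* had upper-mode means in both groups (10.77, 8.90 and 7.07 in Mock RNAi, 10.07, 8.49 and 7.10 in Ph RNAi). *eater* went the other way, at 3.87, 3.91 and 3.41 on the same 3 Ph RNAi arrays. The part of these differences between arrays in the values of *Obp99a* and *Obp18a* was not tested.

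Counted over the family, 1 of 47 genes was called in either direction, where 4.77% of all genes were. That 1 was higher after Ph RNAi, where 3.2% of all genes were, and 0 were called lower by limma, where 1.57% of all genes were. A share of 2.13% is near that background and by itself is not a result about the family. At an unadjusted p under 0.05 were 4 members, *Obp44a*, *Obp99a*, *Obp18a* and *Obp99c*, all with positive changes, against 16.5% of all genes. All 3 Ph RNAi arrays lay above all 3 Mock RNAi arrays for 5 members (9.91% of all genes) and below them for 4 (13.6% of all genes). *Obp99c* had values of 1.68, 1.86 and 1.73 in Mock RNAi and 2.19, 2.02 and 1.97 in Ph RNAi. These groups do not overlap, but all 6 values lie in the lower mode (log2 change 0.30 ± 0.12, SE, adjusted p = 0.213 in limma). The median change over the 47 genes was -0.01, against -0.03 over all genes and -0.01 over the 6233 genes near background in Mock RNAi and Ph RNAi.

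The 41 members in the lower mode in all groups had changes from -0.30 to 0.30, the first of *Obp56h* and the second of *Obp99c*. Values this close to background leave little room for a fall to be measured. Over all genes, 384 were called higher and 188 lower, and with each array centred on its median, which lowers every change by 0.18, the split was 339 and 507. Under that centring *Obp99a* (3.32, adjusted p = 0.0446) was called higher and *Obp58b* (-0.40, adjusted p = 0.0363), a Plus-C gene near background on all 6 arrays, was called lower.

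**Figure D3:**
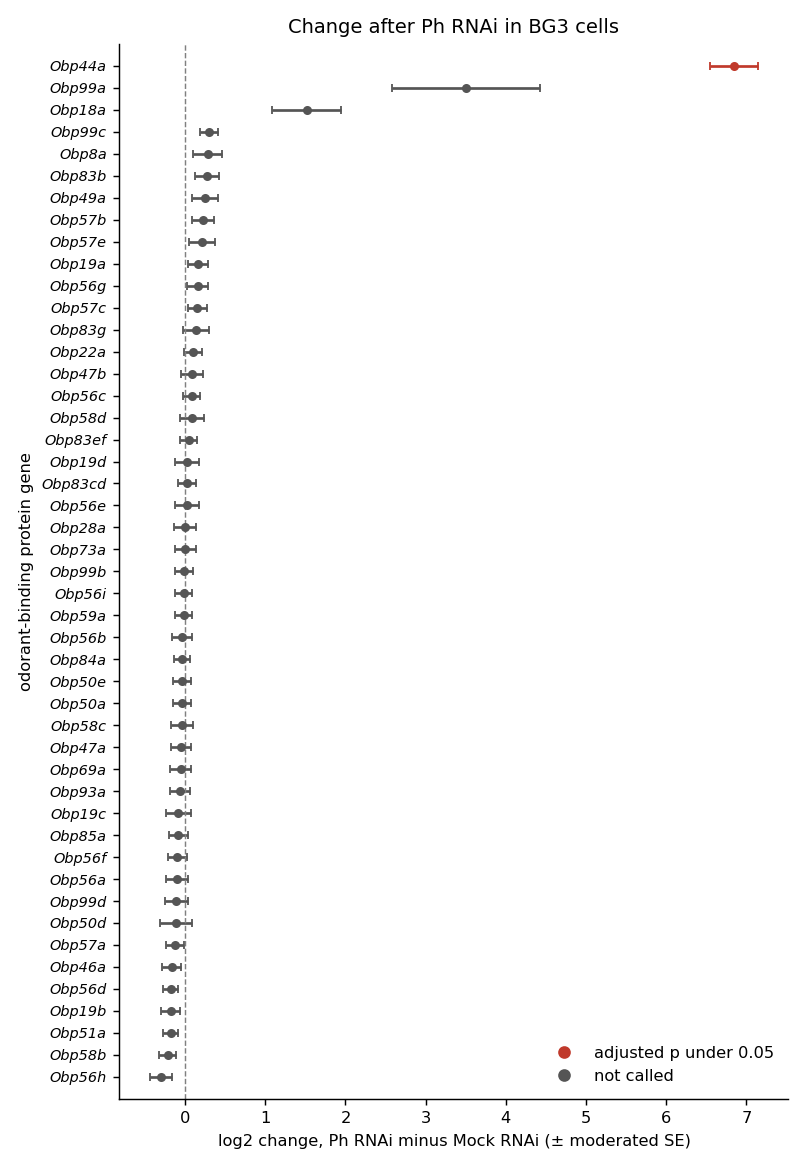
Log2 change of each of the 47 odorant-binding protein genes in Ph RNAi minus Mock RNAi (points), with limma's moderated standard error (bars), sorted by the change. *Obp44a* (6.85, red) is the gene called at an adjusted p under 0.05, *Obp99a* and *Obp18a* have wide errors at 3.50 and 1.52, and the others lie between -0.30 and 0.30.

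In the wing disc another set of odorant-binding protein genes stood in the upper mode. *Obp56a* had the highest mean rank, with log2 values of 7.54, 7.08 and 7.21 on the 3 disc arrays and a percentile of 80.6 ± 2.19 (SD, n = 3). In Mock RNAi it stood at 1.93, 1.79 and 1.46 and a percentile of 16.2 ± 11.99. *Obp99a* followed with 7.26, 6.71 and 6.58 in the disc, a percentile of 75.9 ± 3.86 against 51.7 ± 0.868 in Mock RNAi. In rank its 3 disc replicates lay closer together than its 3 Ph RNAi replicates (SD of the percentile 3.86 and 13.4). *Obp83g* was weaker but even, at 4.63, 4.21 and 4.50 and a percentile of 57.2 ± 0.905, where Mock RNAi gave 1.45, 2.10 and 1.88 and a percentile of 21.6 ± 16.8. In mean rank *Obp56a* and *Obp99a* differed by less than the sum of their standard deviations. On each single disc array, however, *Obp56a* ranked higher (percentiles 83.0, 78.7 and 80.1 against 80.3, 74.5 and 73.0). Both lay above *Obp83g* on every disc array.

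The order of *Obp44a* was the opposite. It stood at 0.47, 0.69 and 0.66 on the disc arrays, in the lower mode and at a percentile of 25.7 ± 10.1, below its 64.7 in Mock RNAi and 99.4 in Ph RNAi. *Obp18a* was likewise in the lower mode of the disc (0.69, 1.18 and 1.14). For each of these 6 genes named in the disc or in the cells (*Obp44a*, *Obp18a*, *Obp56a*, *Obp83g*, *Obp99a* and *Obp99b*) the ranks in wing disc and Mock RNAi did not overlap. An exact two-sided permutation test gave p = 0.1 for each, the smallest that 3 arrays against 3 allow, so that none can pass 0.05. All but *Obp18a* were named for an upper-mode mean in wing disc or in Mock RNAi. For them the lack of overlap was partly fixed by that choice and adds no support. In all, 6 members ranked higher on every disc array than on every Mock RNAi array (29.2% of all genes) and 6 lower (32.9% of all genes), and ranks within the lower mode carry little information.

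*Obp99b* was the most uneven gene on the wing disc arrays. This Minus-C gene, also known as *tsx*, is expressed in the fat body of adult males. Its values were 9.73, 6.55 and 2.66 on wing disc replicates 1, 2 and 3, a range of 7.07 log2 units in the deposited values, the widest of all 11982 genes (place 1). Its lower end lies near background, so the size of this range depends on the background correction and no fold is given. Replicate 1 ranked at a percentile of 97.0, replicate 2 at 72.9 and replicate 3 at 51.3, the last below the boundary of the modes. The mean of 6.31 ± 3.54 (SD, n = 3) therefore describes none of the 3 samples. On the BG3 arrays *Obp99b* stood between 1.78 and 2.05.

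*Obp99c* and *Obp56d*, an odorant-binding protein gene of the antenna and mouthparts, were uneven in the same order. *Obp99c* stood at 3.17, 0.83 and 0.50 on the 3 disc arrays, at place 15 among all genes by range. *Obp56d* stood at 3.80, 2.00 and 1.46, at place 18. On replicate 1 both lay above the boundary of the modes and on the other replicates below it. These 3 genes were the members whose disc replicates spanned more than 1 log2 unit, as 113 of all genes did, where the median range of a gene was 0.17.

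Fat body markers moved with these genes across the disc replicates. Of 7 listed, 7 were measured and 4 had disc means in the upper mode. The storage protein gene *Lsp2* stood at 8.71, 5.68 and 2.34, *Fbp1*, which encodes a receptor for storage protein, at 7.42, 3.04 and 0.79, *Fbp2* at 7.58, 3.62 and 1.49, and *apolpp*, the gene of the main blood lipid carrier, at 6.98, 3.27 and 1.10. The yolk protein genes *Yp1*, *Yp2* and *Yp3*, made by adult females, stayed in the lower mode on all 3 disc arrays. The log2 of the summed signal of the list was 9.83, 6.43 and 4.09 on replicates 1, 2 and 3. In BG3 cells 0 of the 7 had a mean in the upper mode in either group. Of all genes, 13 spanned more than 3 log2 units between the disc replicates, and 10 of these were highest on replicate 1 and lowest on replicate 3. The part of fat body RNA in the disc values of *Obp99b*, *Obp99c* and *Obp56d* was not tested. *Obp56a*, *Obp99a* and *Obp83g* were in the upper mode on replicate 3 too, the array with the fat body markers below the boundary. *Obp99a* still ran in the same replicate order as these markers (7.26, 6.71 and 6.58). Its range of 0.68 was at place 251 among all genes.

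**Figure D4:**
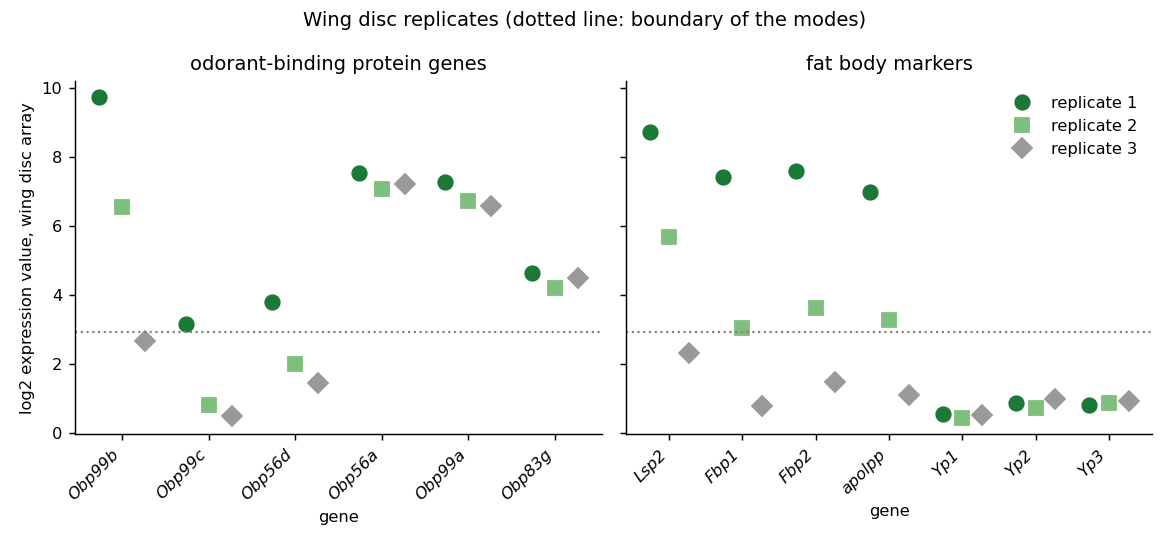
Log2 expression values on the 3 wing disc arrays for 6 odorant-binding protein genes (left) and the 7 fat body markers (right), with a symbol per replicate and a dotted line at the boundary of the modes (2.94). *Obp99b* falls from 9.73 to 2.66 between replicates 1 and 3, as *Lsp2* falls from 8.71 to 2.34, while *Obp56a* stays between 7.08 and 7.54.

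Of the 6 members in the upper mode in any group, *Obp99a* and *Obp99b* lie in the same run of neighbouring genes and no others of the 6 share a run. By RefSeq order 36 of the 51 genes lie in 9 runs, here taken as genes with at most 5 other protein-coding genes between them, and 15 lie alone. *Obp44a* and *Obp18a* are among the genes that lie alone. In the run of 9 genes from *Obp56a* to *Obp56i* on arm 2R, *Obp56a* was the 1 member with a disc mean in the upper mode, and all 9 had BG3 values between 1.45 and 2.29. In the run of *Obp99a*, *Obp99c*, *Obp99d* and *Obp99b* on arm 3R the members differed from each other. *Obp99a* was high in discs and in Ph RNAi cells, *Obp99b* and *Obp99c* were uneven in discs, and *Obp99d* stayed between 0.48 and 0.50 on the disc arrays and between 1.54 and 2.13 on the BG3 arrays. In the run of *Obp83cd*, *Obp83ef* and *Obp83g*, *Obp83g* was the 1 member above background in the disc. All 4 members of the *Obp19* run on the X chromosome and all 4 of the run of *Obp59a* with *Obp58b*, *Obp58c* and *Obp58d* were in the lower mode in every group.

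Sorted by cysteine class and by known site of expression, the 6 genes in the upper mode in any group were divided between Minus-C genes (*Obp44a*, *Obp99a* and *Obp99b*) and others (*Obp18a*, *Obp56a* and *Obp83g*). Of 6 Minus-C genes measured (*Obp8a*, *Obp44a* and the *Obp99* run), 1 was in the upper mode in Mock RNAi, 2 in Ph RNAi and 2 in wing disc, with changes after Ph RNAi from -0.11 to 6.85. All 10 Plus-C genes measured had means in the lower mode in every group, with changes from -0.22 to 0.24. So were 8 genes abundant in the antenna, among them *Obp28a*, *Obp69a*, *Obp83b* and *Obp84a* (changes from -0.18 to 0.28), and 7 genes whose proteins pass into seminal fluid, among them *Obp22a*, *Obp51a* and *Obp56g* (changes from -0.18 to 0.28). The classes were set with the values known, and no test was made between them.

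A second probe set was present for 3 members, *Obp19a*, *Obp19c* and *Obp59a*, and gave values in the lower mode on every array, as did the 4 probe sets shared by *Obp50b* with *Obp50c* and by *Obp57d* with *Cpr57A*. *Obp44a*, *Obp99a*, *Obp18a* and the 3 other genes high in discs were each read by 1 probe set, so that no other probe set bears on their values.

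In the other chemosensory families most genes had means in the lower mode, with a few exceptions. In Mock RNAi the upper mode held 1 of 56 odorant receptor genes (*Or82a*), 3 of 56 gustatory receptor genes (*Gr59e*, *Gr59f* and *Gr94a*), 0 of 53 ionotropic receptor genes and 0 of 12 CheA and CheB genes, and on the disc arrays it held 0 of each of these. *Or82a* stood at 5.51, 6.24 and 6.21 in Mock RNAi and at 6.26, 6.67 and 6.35 in Ph RNAi without a call. *lush*, an odorant-binding protein gene with a name of its own whose product is needed for sensing a male pheromone, stood between 1.86 and 2.13 on the BG3 arrays and between 0.36 and 0.52 on the disc arrays. The olfactory co-receptor gene *Orco* stood between 1.68 and 2.02 and between 0.57 and 0.68. Of 56 odorant receptor genes 0 were called by limma in either direction (3 at an unadjusted p under 0.05), and so it was for 53 ionotropic receptor genes (3) and 12 CheA and CheB genes (0). Of 56 gustatory receptor genes 2 were called higher and 0 lower (6 at an unadjusted p under 0.05). Over all genes 3.2% were called higher, 1.57% were called lower and 16.5% had an unadjusted p under 0.05. The count of 2 is by itself not a result about this family. *Gr59e* rose by 2.35 ± 0.36 (log2 change, SE, adjusted p = 0.00292), from 4.26, 4.94 and 5.59 to 6.92, 7.50 and 7.42, and *Gr94a* rose by 1.83 ± 0.37 (adjusted p = 0.0157), from 5.00, 5.17 and 5.72 to 6.50, 7.84 and 7.05. Median log2 changes were -0.04 for odorant receptor, -0.04 for ionotropic receptor, 0.00 for CheA and CheB and -0.02 for gustatory receptor genes. *Phk-3*, a chemosensory protein gene, was high in discs (9.99, 10.08 and 10.11), where *Os-C* lay just above the boundary of the modes (3.19, 3.60 and 3.29), and in BG3 cells it stood at 2.57, 2.15 and 2.05 against 2.76, 3.81 and 5.30 without a call (adjusted p = 0.0905).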

How the data were processed

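RNA of BG3 cells and wing imaginal discs was read on Affymetrix Drosophila expression arrays from 200 ng of total RNA. The authors deposited log2 expression values per probe set made with GCRMA, as the submitters' processing notes name it, with version and settings not given in the sources used here. GCRMA corrects background with probe sequences, equalizes the distributions of arrays processed together and squeezes weak signals into a narrow band. Arrays give no count or depth, so their number limits the precision. Of 18952 rows, 183 control rows and 1 blank row were left out. Of 18768 probe sets, the platform annotation gave 1 symbol to 13647, several to 402 and none to 4719. Where a gene had several probe sets (1094 genes), the one with the highest mean stood for it, which gave 11982 genes. All 51 Obp symbols of RefSeq (Release 6 plus ISO1 MT) were used for names and gene order alone.

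The contrast of Ph RNAi minus Mock RNAi was fitted to the 6 BG3 arrays as deposited and unfiltered, using R 4.3.3 and limma 3.58.1 (lmFit, then eBayes with trend). Two-sided p-values were adjusted by Benjamini-Hochberg across 11982 genes, and calls required an adjusted p under 0.05. SE is limma's moderated standard error. The procedure was tested on simulated data. It called 30 of 100 changes of 1 log2 unit and 84 of 100 changes of 2 log2 units, with 4.2% false calls. These changes were set only in genes well above the boundary of the modes, so members near background were not covered. Modes were parted at the lowest density of all gene values (Gaussian kernel of width 0.3). Percentile ranks of single genes were compared with an exact permutation test. Summed signals of a marker list are the log2 of the sum of the unlogged values.

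The genes named are every called member, every member in the upper mode in any group, the 3 uncalled members with the smallest p, members of a run with a called one, the measured neighbours of a called one, and *lush*. *Obp56d*, *Obp56h*, *Obp58b* and *Obp99d*, the genes named from other lists and the cysteine and expression classes were added after values were seen. Members and lists were chosen with earlier results of these data known. Alternatives were other variance priors, quantile normalization, median centring, other probe set rules, a filter on low values, all 9 arrays in the fit, a replicate block and leaving out each array.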

Additional observations from a re-analysis of the deposited data

How the results depend on the processing

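*Obp44a* kept its direction and its call in all 15 settings other than the main one. *Obp99a* was called in 5 of 15 (change 2.43 to 4.89, adjusted p from 0.000317 to 0.19) and *Obp18a* in 3 of 15 (0.97 to 1.90, adjusted p from 0.00724 to 0.211), always in the same direction, while *Obp99c* missed the threshold in the 14 run for it (0.12 to 0.35, lowest adjusted p 0.2). The count of higher members, 1 in the main fit, was 2 with median centring, 2 with the filter on low values (which 3 members passed), 3 with all 9 arrays in the fit, and 1 to 3 with 1 array left out, the 3 arising without Ph RNAi replicate 3. The count of lower members, 0 in the main fit, was 1 with median centring and 0 elsewhere. Over all genes the count of lower genes, 188, was 507 with median centring, 497 with all 9 arrays and 88 to 158 with 1 array left out (leaving out replicate 2 of Mock RNAi gave 99, its replicate 3 gave 88, and replicate 3 of Ph RNAi gave 118). Median centring lowers every change by 0.18, and the cause of the other differences was not tested.

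With the replicate number as a block 3 members were called higher (*Obp44a*, *Obp99a* at an adjusted p of 0.000509 and *Obp18a* at 0.00724), with 503 genes higher and 263 lower. Same-numbered Mock RNAi and Ph RNAi arrays had deviations from their group means that correlated at 0.16, 0.16 and -0.17 across genes, so the numbers were not taken to pair the samples.

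How many members had upper-mode means did not change in any group under another probe set rule or without any 1 array. Ranks of 7 named members among all probe sets in place of genes moved by more than 1 SD in 11 of 21 cases. Leaving out 1 of 3 arrays cannot move a mean by more than 1 SD, so that measure cannot judge this setting. The mean percentile of *Obp99b* in wing disc went from 73.7 to 62.1 without replicate 1 and to 84.9 without replicate 3. Signals near background limit what can be said of the 41 members there.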
